A study of Mus musculus with 3 samples.

Results

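The T cell receptor (TCR) beta clonotypes described here were those found in the double-negative (DN) and CD8 libraries of a lupus-prone mouse and not in its CD4 library. A clonotype was a nucleotide CDR3 sequence with its V gene and J gene, and all 3 had to be identical for a match. By this rule 5835 of the 154480 TCR beta clonotypes of the series were present in DN and CD8 T cells only. They were chosen by the presence of reads in DN and CD8 and by 0 reads in CD4, so their read counts and ratios are given as a description. The libraries were 1 each of CD4, CD8 and DN T cells, sorted by flow cytometry from the spleen of 1 MRL.lpr mouse of 16 weeks, from the mRNA of 1000000 cells per subset. The labels give no treatment. The mouse, strain, age and organ were the same for all 3 libraries, and lpr is a mutation of the death receptor gene Fas that the CD4 and CD8 cells carried too. With 1 mouse and 1 library per subset there were no replicates, no test was made, and the subset and its library cannot be told apart. Intervals are 95% intervals of counting error only, over reads or over clonotypes, and no molecular identifiers were named for these reads, so a read is not a molecule. The files hold receptor sequences only, so the sort labels could not be checked against coreceptor or lineage genes.

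DN T cells carry an αβ receptor without the CD4 or CD8 coreceptor, and they accumulate in mice with a defective Fas pathway. The CDR3 of the beta chain is made where a V, a D and a J segment are joined, with bases trimmed and added at the joints, so an identical nucleotide CDR3 in separate subsets can mark descendants of 1 cell. It can also arise in separate cells, more often where few bases are added. The study asked whether DN T cells come from CD8 T cells, and shared clonotypes are the part of the receptor data that bears on this question.

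The 10 shared clonotypes that the results turn on are shown first, because they mark the ends of the range: those with the most DN reads, the most CD8 reads, and the highest and the lowest ratio of DN to CD8 share among those with at least 20 reads. The 3 lines that follow are the clonotypes with the most DN reads. Capitals mark the inner bases, which lie outside the longest match to the usual start of the V gene and end of the J gene. All sequences run 5′ to 3′ on the coding strand from the codon of the conserved cysteine, and no genome build was named for the files.
DN-led TRBV13-1/TRBJ2-7: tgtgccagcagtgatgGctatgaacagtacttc
DN-led TRBV13-2/TRBJ2-5: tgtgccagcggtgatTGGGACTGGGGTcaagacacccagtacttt
DN-led TRBV13-3/TRBJ2-5: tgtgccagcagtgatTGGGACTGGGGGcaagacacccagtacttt
The next 4 had the most CD8 reads or the lowest ratio of DN to CD8 share, and the first and the third of them met both rules.
CD8-led TRBV13-3/TRBJ1-1: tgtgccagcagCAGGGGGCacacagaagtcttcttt
CD8-led TRBV13-3/TRBJ2-5: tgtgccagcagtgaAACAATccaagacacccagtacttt
CD8-led TRBV31/TRBJ1-1: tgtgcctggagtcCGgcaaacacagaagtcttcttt
CD8-led TRBV13-3/TRBJ2-7: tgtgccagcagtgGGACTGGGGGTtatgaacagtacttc
The last 3 had the highest ratio of DN to CD8 share.
High-ratio TRBV13-1/TRBJ2-3: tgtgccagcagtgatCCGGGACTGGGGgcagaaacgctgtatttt
High-ratio TRBV13-2/TRBJ1-5: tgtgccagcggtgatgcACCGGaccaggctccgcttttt
High-ratio TRBV14/TRBJ2-1: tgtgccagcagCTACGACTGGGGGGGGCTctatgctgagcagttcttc

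All 10 were in frame without a stop codon, and 8 of the 10 used a gene of the TRBV13 family, the former Vβ8 genes. Of all shared clonotypes, 96.2% were in frame, and TRBV13-1, TRBV13-2 and TRBV13-3 had 17.6%, 11.7% and 11.2%. The 10 were picked by their reads, so these counts are no result about the set. The TRBV13-2/TRBJ2-5 and TRBV13-3/TRBJ2-5 clonotypes of the DN-led set differed at 2 of 45 positions and shared the run GACTGGG of the TRBD2 segment. The TRBV13-1/TRBJ2-7 clonotype with the most DN reads had 1 inner base and no D segment was listed for it. The CDR3 starts of the TRBV13 genes are nearly alike, and the V gene named is the best match in the deposited tables, without a second choice.

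The shared clonotypes held a larger part of the DN reads than of the CD8 reads. They were 13.9% (13.6 to 14.2) of the 41948 DN clonotypes and 7.18% (7.01 to 7.36) of the 81212 CD8 clonotypes, and the order of these shares follows from the totals alone. In reads, they held 39904 of the 194290 DN TCR beta reads, or 20.5% (20.4 to 20.7), and 14218 of the 150874 CD8 reads, or 9.42% (9.28 to 9.57). DN-only clonotypes, 32359 in number, held 30.1% of the DN reads, and the 71479 CD8-only clonotypes held 72.1% of the CD8 reads. A further 1937 clonotypes were present in all 3 libraries and held 46.0% of the DN reads and 15.2% of the CD8 reads. The DN and CD4 pair shared 1817 clonotypes that were absent from CD8, which is 4.33% (4.14 to 4.53) of the DN clonotypes. The CD4 library had 44807 clonotypes to match and the CD8 library 81212, so this share and the 13.9% with CD8 are not on equal terms.

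A shared clonotype had a median of 3 DN reads, a mean of 6.84 and at most 207. DN-only clonotypes had a median of 1 DN read, a mean of 1.81 and at most 66, and clonotypes in all 3 libraries had a median of 19 and at most 1374. In the CD8 library the shared clonotypes had a median of 1 read, a mean of 2.44 and at most 142, against a median of 1, a mean of 1.52 and at most 104 for CD8-only clonotypes. In mean reads the shared clonotypes were thus larger than the private clonotypes of either library and smaller than the clonotypes of all 3, which had 46.2 DN reads and 11.9 CD8 reads. Most rested on few reads, as 1043 of them (17.9%) had 1 read in each library and 3706 (63.5%) had 1 read in DN or in CD8. At least 2 reads in each library were present for 2129, at least 5 for 378 and at least 10 for 68.

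The ratio of DN to CD8 share leaned to DN. Over all shared clonotypes the median log2 ratio was 0.64, a ratio of 1.55, with quartiles of -0.36 and 1.64 and a range from -6.51 to 5.28. The DN share was at least 2-fold the CD8 share for 2418 clonotypes (41.4%), the CD8 share was at least 2-fold the DN share for 809 (13.9%), and 2608 (44.7%) lay between. Over all 7772 clonotypes present in both libraries, the corresponding shares were 49.2% and 12.4%. The reads chose the clonotypes, so these counts are no result about them. The low counts keep the ratio of the smallest near 1, since 1 read in each library gives a ratio of shares of 0.777. Among the 636 shared clonotypes whose DN and CD8 reads summed to at least 20, the median log2 ratio was 2.30 (2.22 to 2.41), a ratio of 4.93. Of these, 555 (87.3%) were at least 2-fold higher in DN, 38 (5.97%) were at least 2-fold higher in CD8, and 43 lay between. The 1065 clonotypes of all 3 libraries at that level had a median ratio of 5.14, with 971 (91.2%) higher in DN.

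**Figure D1:**
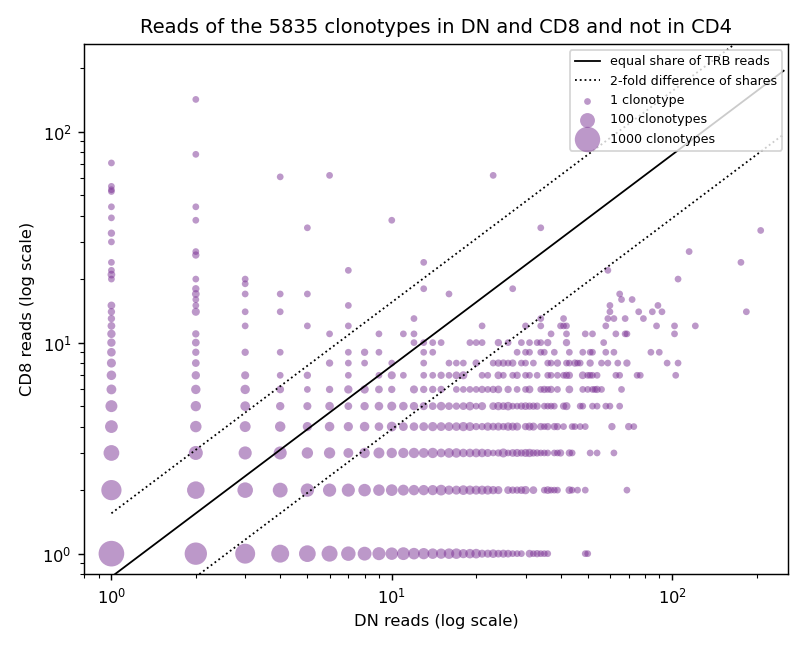
DN reads (x axis, log scale) against CD8 reads (y axis, log scale) of the 5835 shared clonotypes, where the area of a point grows with the number of clonotypes at that pair of counts, the solid line marks equal shares of TCR beta reads and the dotted lines a 2-fold difference of shares. Points with many DN reads lie below the lines, up to 207 DN reads beside 34 CD8 reads, and a thin column at 1 and 2 DN reads rises to 142 CD8 reads.

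The 3 largest DN clonotypes of the set were TRBV13 clonotypes. Their reads in CD8 are required by the rule, and picking them by DN reads raises their ratio. The DN-led TRBV13-1/TRBJ2-7 clonotype had 207 DN reads and 34 CD8 reads, ranked 68 in DN and 145 in CD8, and its share was 4.73-fold (3.28 to 7.01) higher in DN. The DN-led TRBV13-2/TRBJ2-5 clonotype had 184 DN and 14 CD8 reads, a ratio of 10.2 (5.93 to 19.04). The DN-led TRBV13-3/TRBJ2-5 clonotype, similar to it in sequence, had 176 DN and 24 CD8 reads, a ratio of 5.69 (3.71 to 9.13). All 3 therefore stood several-fold above their CD8 share, with intervals that overlap each other.

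The 3 largest CD8 clonotypes of the set had 1 or 2 DN reads. The CD8-led TRBV13-3/TRBJ1-1 clonotype had 142 CD8 reads and 2 DN reads, ranked 22 in CD8, and its CD8 share was 91.4 times the DN share (24.8 to 762). The CD8-led TRBV13-3/TRBJ2-5 clonotype had 78 CD8 and 2 DN reads, and the CD8-led TRBV31/TRBJ1-1 clonotype had 71 CD8 reads and 1 DN read. The CD8-led TRBV13-3/TRBJ2-7 clonotype, shown for its low ratio, had 55 CD8 reads and 1 DN read. Between these in size were 3 clonotypes outside the naming rule with more DN reads, at 62 CD8 and 23 DN reads, 62 and 6, and 61 and 4. At the other end, the high-ratio TRBV13-1/TRBJ2-3 clonotype had 50 DN reads and 1 CD8 read, a ratio of 38.8 (6.66 to 1564). The high-ratio TRBV13-2/TRBJ1-5 clonotype had 49 DN reads and the high-ratio TRBV14/TRBJ2-1 clonotype had 36, with 1 CD8 read each. These ratios rest on 1 or 2 reads in the lower library, and their upper limits are correspondingly wide.

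Shared clonotypes with many CD8 reads had either many or very few DN reads. Choosing by DN reads raises the ratio and choosing by CD8 reads lowers it, so both are set beside the clonotypes of all 3 libraries chosen in the same way. Among the 1167 shared clonotypes with at least 10 DN reads, 1076 (92.2%) were at least 2-fold higher in DN and 3 in CD8, with a median ratio of 5.24 and quartiles of 3.37 and 8.54. The 1237 clonotypes of all 3 libraries with at least 10 DN reads had a median ratio of 5.18. Among the 144 with at least 10 CD8 reads, 78 (54.2%) were higher in CD8 and 47 (32.6%) in DN, and the median log2 ratio was -1.91 with quartiles of -3.82 and 1.40. Of those 144, 59 had 1 or 2 DN reads and 68 had at least 10 DN reads, and the other 17 had 3 to 9. Of the clonotypes of all 3 libraries with at least 10 CD8 reads, 356 of 438 (81.3%) were higher in DN. At the opposite corner, 526 shared clonotypes had at least 10 DN reads and 1 or 2 CD8 reads.

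The share of a library's clonotypes that was shared by DN and CD8 only rose and then fell with clonotype size in DN. Of the DN clonotypes with 1 read, 7.23% (6.91 to 7.57) were of this kind. The share rose through 12.7% at 2 reads, 20.5% at 3 to 4 and 33.7% at 5 to 9 reads to 50.9% (48.3 to 53.6) at 10 to 19 reads. It was 41.0% at 20 to 49, 18.8% at 50 to 99 and 4.65% (2.55 to 8.35), 10 of 215, at 100 or more. Over the same classes the DN-only share fell from 88.7% to 0 of 215, which allows up to 1.40%, and the share in all 3 libraries rose from 0.760% to 95.3%. In CD8 the share was 5.42% (5.24 to 5.61) at 1 read, reached 19.04% (17.5 to 20.7) at 5 to 9 reads and was 11.6% (8.16 to 16.3) at 20 to 49 reads. It was 17.8% (9.29 to 31.3), 8 of 45, at 50 to 99 and 2.86% (0.51 to 14.5), 1 of 35, at 100 or more. The intervals at 20 to 49 and at 100 or more reads lay below that at 5 to 9 reads. The interval at 50 to 99 reads overlapped it, so the fall in CD8 was not steady.

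**Figure D2:**
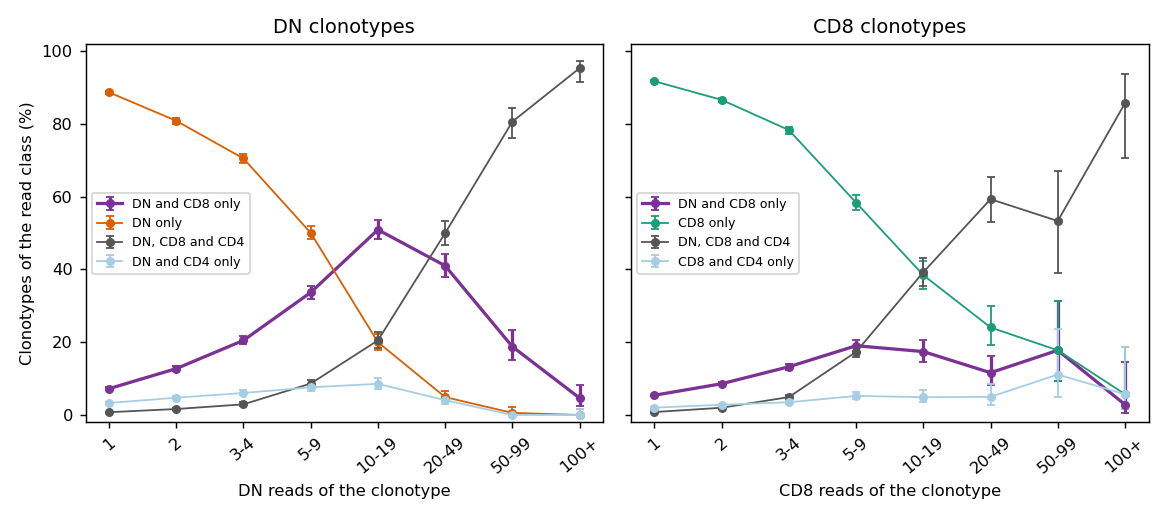
Share of the DN clonotypes (left) and of the CD8 clonotypes (right) in each class of reads that were found in the libraries named in the key, with 95% Wilson intervals as bars. In DN the clonotypes shared with CD8 only peak at 50.9% in the class of 10 to 19 reads, while DN-only clonotypes fall from 88.7% and clonotypes of all 3 libraries rise to 95.3%.

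Summed over DN clonotypes absent from CD4, whether found in CD8 or not, the DN share was 4.87 to 6.07 times the CD8 share in every read class. This sum takes the shared and the DN-only clonotypes together, so presence in CD8 did not choose its members. Their DN reads did choose and class them, with CD8-only clonotypes left out, and this raises the ratio. The 22725 such clonotypes with 1 DN read had 3624 CD8 reads, a ratio of DN to CD8 share of 4.87 (4.70 to 5.04). The ratio was 4.99 at 2 DN reads, 6.05 at 3 to 4, 5.90 at 5 to 9, 5.24 at 10 to 19, 5.43 at 20 to 49, 5.91 at 50 to 99 and 6.07 (5.16 to 7.16) at 100 or more. The ratio stayed between 4.87 and 6.07 but was not constant. Its intervals at 1 read and at 2 reads (4.77 to 5.22) lay below those at 3 to 4 (5.77 to 6.34) and 5 to 9 reads (5.64 to 6.19). For DN clonotypes that were present in CD4 it went from 0.502 at 1 DN read to 5.17 at 100 or more. Summed the other way, over CD8 clonotypes absent from CD4, the members were chosen by CD8 reads, which lowers the ratio. The DN share was 0.172 of the CD8 share at 1 CD8 read and 0.574 at 5 to 9 reads. At 50 to 99 reads it was 0.0293 (0.0207 to 0.0403). No cause of the range from 4.87 to 6.07 was tested. Whether reads were carried over between the DN and CD8 libraries, which would also give shared clonotypes, was not tested either.

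Absence from CD4 was limited by depth for most of the set. The CD4 library had 133667 TCR beta reads, so a share of up to 0.00224% (3 reads) could be missed. For 3346 of the shared clonotypes (57.3%), the DN share and the CD8 share were both under that limit. For 96 clonotypes, the DN share was at least 10 times the limit, and the DN share of the largest was at least 47.5-fold above it. Just outside the rule were 829 clonotypes present in DN and CD8 with 1 CD4 read, which had a median of 12 DN reads and 3 CD8 reads, above the medians of 3 and 1 in the set. For 737 of the shared clonotypes (12.6%), a CD4 clonotype of equal length, V gene and J gene differed at 1 position, against 7.53% of DN-only and 8.35% of CD8-only clonotypes.

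The V genes of the shared clonotypes were close to those of DN-only clonotypes and far from those of CD8-only clonotypes. V genes encode most of the variable domain, with the CDR1 and CDR2 loops, and the start of CDR3. The distance, which is the summed absolute difference of V gene shares divided by 2 and cannot be below 0, was 7.03 points (5.64 to 8.42) to DN-only and 19.2 points (17.9 to 20.5) to CD8-only clonotypes. TRBV13-1 (Vβ8.3) was the most used, with 1028 clonotypes or 17.6% (16.7 to 18.6), against 18.4% of DN-only and 8.15% of CD8-only clonotypes. The difference to CD8-only was 9.47 points (8.49 to 10.5), while that to DN-only was -0.78 points (-1.82 to 0.31), within counting error. TRBV13-2 (Vβ8.2) had 11.7% of the set, 12.6% of DN-only and 9.92% of CD8-only clonotypes. TRBV13-3 (Vβ8.1) ran the other way at 11.2%, 9.62% and 15.04%. TRBV13-1 thus stood at the DN-only level, while TRBV13-2 and TRBV13-3 lay between the private sets when all were counted. With at least 2 reads the difference to DN-only was -1.49 points (-2.92 to 0.06) for TRBV13-2 and 1.27 points (-0.16 to 2.81) for TRBV13-3. Both were within counting error.

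The other V genes with at least 5% of the set were TRBV1, TRBV17, TRBV31, TRBV19 and TRBV5. TRBV1 (Vβ2) had 13.3% of the shared clonotypes, 11.2% of DN-only and 11.2% of CD8-only clonotypes, and was 2.18 points (1.26 to 3.14) above the first and 2.14 points (1.26 to 3.07) above the second. TRBV17 (Vβ9) had 10.6%, against 8.92% and 6.04%. TRBV31 (Vβ14), which lies downstream of the constant genes and is joined by inversion, had 8.26%, against 7.57% of DN-only and 11.9% of CD8-only clonotypes. TRBV19 (Vβ6) had 6.56%, below 7.53% and 9.03%, and TRBV5 (Vβ1) had 6.08%, between 6.85% and 4.96%. In all, 5 V genes lay outside both intervals in the same direction, namely TRBV1 and TRBV17 above both private sets, and TRBV19, TRBV26 (1.30%, against 1.75% and 2.08%) and TRBV29 (1.83%, against 2.48% and 3.18%) below both. With at least 2 reads in each library where a clonotype was present, only TRBV1 of these 5 kept both intervals off 0, at 1.86 points (0.42 to 3.43) above DN-only and 2.52 points (1.13 to 4.04) above CD8-only clonotypes. TRBV14 (Vβ13), at 3.55%, was above the 2.56% of DN-only and below the 6.91% of CD8-only clonotypes.

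**Figure D3:**
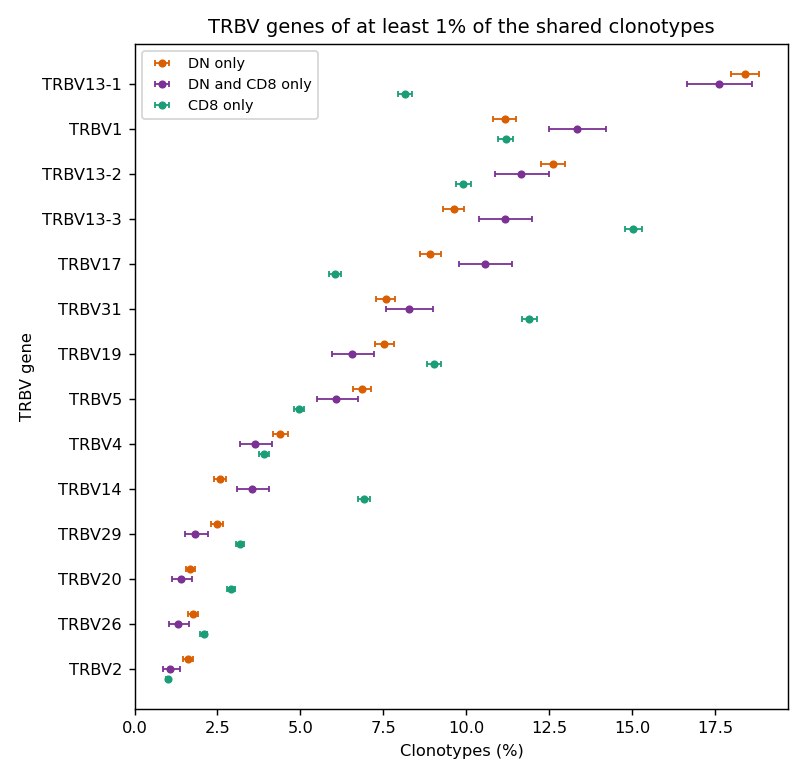
Share of clonotypes (x axis, %) by TRBV gene (y axis) among DN-only, shared and CD8-only clonotypes, for the genes with at least 1% of the shared clonotypes, with 95% Wilson intervals. For TRBV13-1 the shared clonotypes (17.6%) lie beside DN-only (18.4%) and away from CD8-only (8.15%), and for TRBV1 and TRBV17 they lie above both.

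The V genes of the shared clonotypes that were higher in CD8 were also nearer to DN-only clonotypes, but not those of the largest. The 809 clonotypes with a CD8 share at least 2-fold the DN share were 11.5 points (8.04 to 14.98) from DN-only and 17.6 points (14.2 to 21.02) from CD8-only clonotypes, and the distances of a smaller set are raised by its counting error. TRBV13-1 made up 15.6% of those 809, 19.2% of the 2418 that were higher in DN, and 8.15% of CD8-only clonotypes. Between the DN-higher and the CD8-higher clonotypes, TRBV13-1 differed by 3.61 points (0.55 to 6.46) and TRBV17 by -2.89 points (-5.53 to -0.51), with 8.97% and 11.9%. The 38 CD8-higher clonotypes with at least 20 reads were 22.9 points (7.49 to 37.8) from DN-only and 23.1 points (7.19 to 36.5) from CD8-only clonotypes, so no difference was resolved. Of these 38, 7 (18.4%) used TRBV19, against 27 (4.86%) of the 555 DN-higher ones. Among shared clonotypes with at least 20 reads, the median log2 ratio of the V genes with at least 10 such clonotypes went from 2.12 (1.54 to 2.64) for the 37 of TRBV19 to 2.76 (2.14 to 3.09) for the 27 of TRBV14, with 2.24 for the 137 of TRBV13-1, 2.37 for the 81 of TRBV1 and 2.59 for the 41 of TRBV5. The intervals of these genes overlap.

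The J genes followed the same order with smaller distances, 2.72 points (1.35 to 4.10) to DN-only and 7.31 points (5.98 to 8.65) to CD8-only clonotypes. With at least 5 reads the order turned, at 10.6 points (5.03 to 16.04) and 9.84 points (4.27 to 15.3), within counting error. J genes encode the end of CDR3 and the last strand of the variable domain, and lie in a TRBJ1 and a TRBJ2 cluster, each behind its D gene. TRBJ2-7 was the most used at 24.9% (23.8 to 26.0), above the 22.9% of DN-only and the 20.8% of CD8-only clonotypes. TRBJ2-1 had 16.6% against 15.9% and 13.8%, TRBJ2-5 had 12.1% against 12.1% and 13.5%, and TRBJ2-3 had 7.93% against 8.07% and 8.22%. TRBJ2-4 had 6.08%, below 6.90% and 8.12%, and TRBJ2-2 had 4.40% against 4.57% and 4.91%. TRBJ2-7 and TRBJ2-4 were outside both intervals, TRBJ2-7 above and TRBJ2-4 below. With at least 2 reads the difference to DN-only was 1.48 points (-0.46 to 3.51) for TRBJ2-7, within counting error. For TRBJ2-4 it was -1.58 points (-2.58 to -0.45). Clonotypes of all 3 libraries had 24.3% TRBJ2-7 and 6.35% TRBJ2-4. The shared clonotypes differed from them by 0.57 points (-1.68 to 2.74) and -0.27 points (-1.58 to 0.92), within counting error. In the TRBJ1 cluster, TRBJ1-1 had 8.35% against 8.78% and 8.54%, TRBJ1-4 had 6.44% against 6.51% and 6.32%, and TRBJ1-6 had 3.74% against 4.01% and 3.48%. TRBJ1-2 had 3.55% against 3.94% and 4.90%, TRBJ1-3 had 3.68% against 3.82% and 4.78%, and TRBJ1-5 had 2.21% against 2.49% and 2.60%. TRBJ2-6 had 0 of 5835, which allows up to 0.0514%, and 1 clonotype in each private set. The TRBJ2 cluster as a whole had 72.0% of the shared, 70.4% of DN-only and 69.4% of CD8-only clonotypes. The most used pair was TRBV13-1 with TRBJ2-7, the pair of the largest DN-led clonotype shown above, with 304 clonotypes or 5.21%, against 4.72% of DN-only and 1.79% of CD8-only clonotypes.

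TRBD2 was listed more often in the shared than in CD8-only clonotypes. TRBD2 was listed for 39.4% (38.1 to 40.6) of the shared, 40.3% of DN-only and 32.1% of CD8-only clonotypes, a difference of 7.26 points (5.97 to 8.56) to CD8-only. TRBD1 was listed for 36.3%, 37.1% and 42.01%. No D gene was listed for 24.3% of the shared clonotypes, and the difference was 1.77 points (0.59 to 2.98) to DN-only and -1.57 points (-2.70 to -0.40) to CD8-only clonotypes. With at least 2 reads the difference to DN-only was 0.47 points (-1.45 to 2.47), within counting error. With reads as weights the difference to CD8-only turned to 0.97 points (0.20 to 1.75). Within the set, 33.6% of the CD8-higher clonotypes had no D gene listed, against 22.7% of the DN-higher ones, and the DN-higher less the CD8-higher share was -10.96 points (-14.7 to -7.35). The D gene listed was the same in DN and CD8 for all 5835 clonotypes, which follows from the identical sequence.

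**Figure D4:**
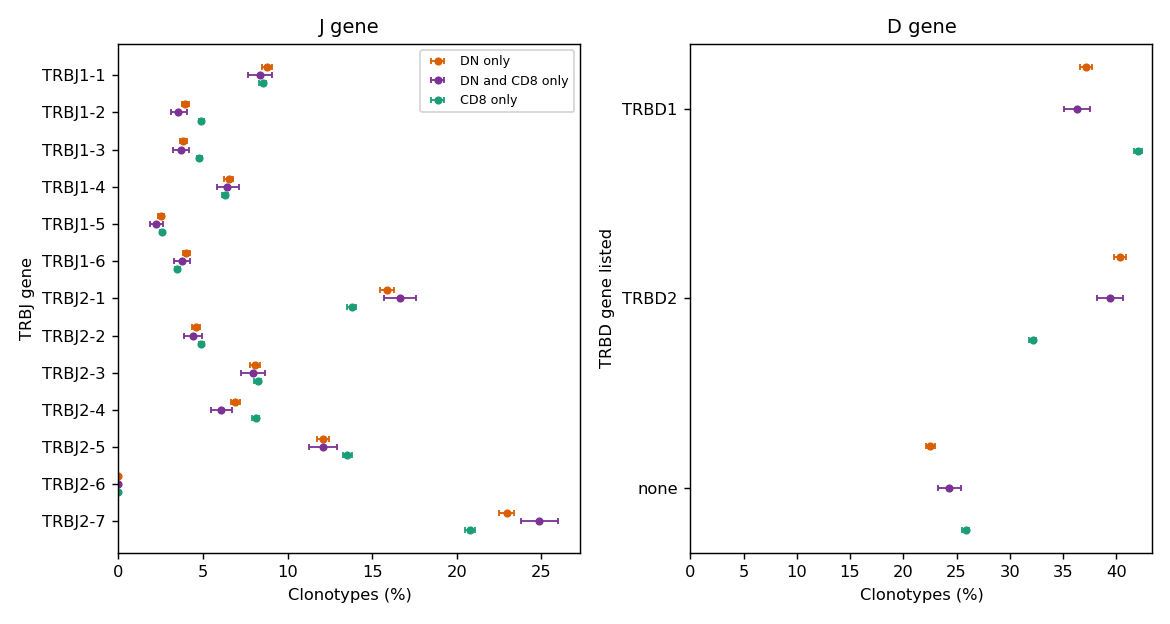
Share of clonotypes (x axes, %) by TRBJ gene (left) and by the TRBD gene listed (right) among DN-only, shared and CD8-only clonotypes, with 95% Wilson intervals. TRBJ2-7 is highest in the shared clonotypes at 24.9%, and for TRBD2 the shared (39.4%) and DN-only (40.3%) clonotypes lie together above CD8-only (32.1%).

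The CDR3s of the shared clonotypes were longer than those of CD8-only clonotypes, and shorter than those of DN-only clonotypes when all were counted. Over in-frame clonotypes without a stop codon, the mean length was 42.4 nucleotides ± 4.57 (SD over 5611 clonotypes), against 42.7 ± 4.52 in DN-only and 41.7 ± 4.56 in CD8-only clonotypes. The differences were -0.34 nucleotides (-0.47 to -0.21) and 0.68 nucleotides (0.56 to 0.81), small against the spread over clonotypes. With at least 2 reads the difference to DN-only was -0.21 (-0.42 to 0.01) and with at least 5 reads -0.20 (-0.72 to 0.32), both within counting error. The most frequent length was 14 residues in the shared set, with 28.2% of the clonotypes, and 15 residues had 25.5%. Within V genes the difference to DN-only was below 0 for all 8 genes with at least 5% of the set, from -0.18 for TRBV5 to -0.61 for TRBV13-3, with an interval off 0 for 4 of them (TRBV1, TRBV13-2, TRBV13-3 and TRBV19). The difference to CD8-only was above 0 for 7 of the 8, up to 0.82 for TRBV13-2. Its interval included 0 for TRBV19, at 0.30 (-0.17 to 0.77), for TRBV5, at 0.38 (-0.11 to 0.88), and for TRBV17, at -0.02 (-0.40 to 0.35). Clonotype size moved with length, as in-frame shared clonotypes with 1 DN read averaged 41.9 nucleotides and those with 10 to 19 DN reads 42.9. With reads as weights, the difference to DN-only changed sign to 0.055 nucleotides.

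Length went with the ratio of shares inside the set. The DN-higher clonotypes averaged 42.9 nucleotides ± 4.49 and the CD8-higher ones 41.2 ± 4.62, a difference of 1.73 (1.36 to 2.10). CDR3s of up to 11 residues were 9.72% of the CD8-higher and 3.93% of the DN-higher in-frame clonotypes. The 36 in-frame CD8-higher clonotypes with at least 20 reads averaged 40.3 nucleotides, 2.91 (1.32 to 4.50) below the DN-higher ones of that size. Against CD8-only clonotypes with at least 2 CD8 reads, the CD8-higher clonotypes differed by -0.15 nucleotides (-0.48 to 0.18). Against DN-only clonotypes with at least 2 DN reads, the DN-higher ones differed by 0.22 nucleotides (0.02 to 0.43).

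**Figure D5:**
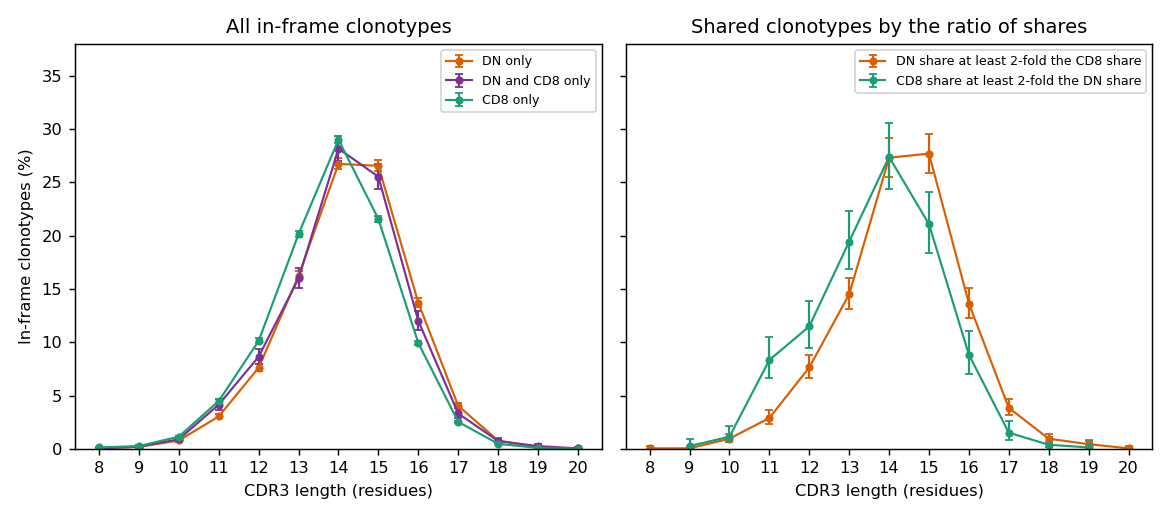
Share of in-frame clonotypes (y axis, %) by CDR3 length in residues (x axis, 8 to 20), for the shared and private sets (left) and for the shared clonotypes split by a 2-fold difference of DN and CD8 share (right), with 95% Wilson intervals. On the right the CD8-higher clonotypes have more CDR3s of 11 to 13 residues and the DN-higher clonotypes more of 15 to 17, with means of 41.2 and 42.9 nucleotides.

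The shared clonotypes had fewer inner bases than DN-only clonotypes. Inner bases, marked by capitals in the sequences shown, averaged 10.005 ± 4.09 in the shared, 11.2 ± 4.70 in DN-only and 10.1 ± 4.38 in CD8-only in-frame clonotypes. The difference to DN-only was -1.19 (-1.31 to -1.07) and to CD8-only -0.07 (-0.19 to 0.04). Clonotypes of all 3 libraries averaged 10.04 inner bases, those of DN and CD4 only 9.94 and those of CD8 and CD4 only 8.07. With at least 2 reads, the shared clonotypes differed by -0.53 bases (-0.72 to -0.34) from DN-only and by 0.64 bases (0.46 to 0.83) from CD8-only clonotypes. CDR3s with at most 3 inner bases, such as the DN-led TRBV13-1/TRBJ2-7 and the CD8-led TRBV31/TRBJ1-1 sequences, were 5.51% of the shared, 2.74% of DN-only and 4.78% of CD8-only clonotypes. They were 12.4% of the CD8-higher and 3.63% of the DN-higher clonotypes of the set. The DN-higher clonotypes differed by 0.009 inner bases (-0.17 to 0.19) from DN-only clonotypes with at least 2 DN reads, within counting error. The CD8-higher ones differed by -0.76 bases (-1.07 to -0.45) from CD8-only clonotypes with at least 2 CD8 reads.

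The core of the TRBD2 segment was found more often in the shared than in CD8-only clonotypes, and more often in its commonest reading phase. GACTGGG, taken as the TRBD2 core, was searched on both strands, as was GACAGGG, the TRBD1 core, which differs from it at 1 base. GACTGGG was present in 22.5% (21.4 to 23.6) of the in-frame shared, 20.9% of DN-only, 14.995% of CD8-only and 15.9% of all in-frame TCR beta clonotypes of the series. Clonotypes of all 3 libraries had 23.1%, and the shared clonotypes differed from them by -0.67 points (-2.91 to 1.49). With at least 2 reads the difference to DN-only was 0.86 points (-1.07 to 2.87), within counting error, and that to CD8-only 7.05 points (5.22 to 8.98). At a fixed length of 42 nucleotides the shares were 22.6%, 18.02%, 14.05% and 14.3%, and at 45 nucleotides 28.1%, 25.3%, 20.5% and 21.3%. GACAGGG was present in 12.9%, 12.6%, 15.2% and 14.5%. On the reverse strand, neither was found in the 5611 in-frame shared clonotypes, which allows up to 0.0535%. A match is a description of letters, and does not show which segment was joined.

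Where GACTGGG occurred, it was read as the codons GAC and TGG, for aspartate and tryptophan, in 820 of 1261 shared clonotypes (65.0%), in 63.4% of DN-only and in 42.2% of CD8-only clonotypes. The difference to CD8-only was 22.8 points (20.01 to 25.6) and that to DN-only 1.61 points (-1.32 to 4.47). The DN-led TRBV13-2/TRBJ2-5 and TRBV13-3/TRBJ2-5 and the high-ratio TRBV14/TRBJ2-1 sequences hold the core in this phase. The CD8-led TRBV13-3/TRBJ2-7 and the high-ratio TRBV13-1/TRBJ2-3 sequences hold it in other phases. Within each of the 8 main V genes, the shared clonotypes had this phase more often than CD8-only clonotypes, with 77.3% against 50.4% for TRBV13-1, 79.1% against 42.7% for TRBV31 and 126 of 168 against 47.4% for TRBV13-2. The interval of this difference was off 0 for 7 of the 8, and was -1.03 to 18.8 points for TRBV17. Against DN-only clonotypes, the phase was less frequent for TRBV13-3 (52.8% against 65.8%) and TRBV1 (46.0% against 56.0%) and more frequent for TRBV31 (79.1% against 65.6%). The CD8-higher clonotypes of the set had it in 113 of 166 (68.1%), and the DN-higher ones in 65.6%. Clonotypes of all 3 libraries had it in 297 of 433 (68.6%), and those of DN and CD4 only in 217 of 364 (59.6%).

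Nearly all shared clonotypes could encode a chain. The share in frame without a stop codon was 96.2% (95.6 to 96.6), above 89.6% in DN-only and 94.9% in CD8-only clonotypes, by 6.57 points (5.95 to 7.14) and 1.27 points (0.72 to 1.76). It was 96.6% in clonotypes of all 3 libraries, from which the shared clonotypes differed by -0.43 points (-1.32 to 0.58). Clonotypes of DN and CD4 only had 94.4% in frame, and those of CD8 and CD4 only 98.4%. The difference to CD8-only was not seen with at least 2 reads, when 97.0% of the shared and 97.4% of CD8-only clonotypes were in frame, a difference of -0.39 points (-1.23 to 0.29). The difference to DN-only was then 3.91 points (2.98 to 4.72), with 93.1% in DN-only clonotypes. It was present at 1 DN read, with 96.4% (95.5 to 97.2) of the shared and 87.7% (87.3 to 88.1) of DN-only clonotypes in frame. In the class of 10 to 19 DN reads the shares were 97.5% and 94.2%. These classes match the sets in DN reads only. A shared clonotype with 1 DN read was also read in CD8 by the rule, while a DN-only one rests on 1 read. A minimum of 2 reads likewise asks for 2 in each library from a shared clonotype, and for 2 in 1 library from a private one. Whether read errors add to the differences in frame was not tested.

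The 224 shared clonotypes that were not in frame or held a stop codon were spread over 20 V genes. A frameshift was present in 211 and a stop codon in 40. They held 1130 DN reads and 458 CD8 reads, with medians of 3 and 1 and at most 52 in either library. TRBV31 had 43 of them (19.2%) and TRBV4 (Vβ10) had 41 (18.3%), against 8.26% and 3.63% of the whole set. Of the shared clonotypes of a gene, they were 43 of 482 for TRBV31 and 41 of 212 for TRBV4. For TRBV24 they were 13 of 14 and for TRBV15 15 of 18. The V genes of such clonotypes in the private sets were not compared. Their median log2 ratio of DN to CD8 share, 0.64, was that of the in-frame clonotypes. Low counts give many clonotypes the same ratio, so equal medians show little. The CD8 share was at least 2-fold higher for 17 of the 224 (7.59%, 4.79 to 11.8), against 14.1% (13.2 to 15.05) of in-frame shared clonotypes. The DN share was at least 2-fold higher for 45.1% (38.7 to 51.6) and 41.3%, with overlapping intervals.

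Chains of the shared clonotypes were more often encoded by several nucleotide sequences than those of the private sets, and less often than those of clonotypes of all 3 libraries. For 1504 of the 5611 in-frame shared clonotypes, or 26.8% (25.7 to 28.0), an identical amino acid CDR3, V gene and J gene was present in the series through another nucleotide sequence, against 16.4% of DN-only, 18.0% of CD8-only and 31.8% (29.7 to 33.9) of the clonotypes of all 3 libraries. For 419 (7.47%, 6.81 to 8.18), that other sequence was in the CD4 library, against 4.60% of DN-only and 4.94% of CD8-only clonotypes, so absence from CD4 by nucleotide was not absence of the chain. Within the set, 109 chains were encoded by several shared clonotypes, 235 in all and up to 5 for 1 chain. The nucleotide CDR3 of 76 shared clonotypes was present in CD4 with another V or J gene. A clonotype with at least 10 times their reads lay 1 mismatch away in the same library for 56 shared clonotypes in DN (0.960%) and 26 in CD8 (0.446%), against 2.46% of DN-only clonotypes in DN and 0.744% of CD8-only clonotypes in CD8.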

How the data were processed

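The data were 3 TCR libraries, 1 each of CD4, CD8 and DN T cells. The authors made them with a Takara SMARTer kit and assembled clonotypes with MiXCR, whose version, settings and read filters are not given in the sources used here. The deposited tables hold a count of reads per clonotype, not normalized, and the authors' fraction of the library's reads, which equalled the count over the table's total when checked. Shares were recomputed over TRB clonotypes (133667, 150874 and 194290 reads in CD4, CD8 and DN), leaving out 84, 101 and 78 clonotypes of other chains.

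The floor was 3 reads, or 0.00224%, 0.00199% and 0.00154%. No read filter was applied to the main values. Shares have Wilson intervals, differences of shares Newcombe intervals, differences of means normal intervals over clonotypes, medians order-statistic intervals and ratios of reads exact (Clopper-Pearson) intervals, all at 95%. For a count of 0, the limit given in the text is 3 divided by the total, not the Wilson limit. Clonotypes are not replicates, so no p-value was computed. V gene starts and J gene ends were consensus sequences of in-frame clonotypes of all libraries, extended while the commonest base had at least 50% and at least 10% of the gene's clonotypes were left. Older V names came from the RefSeq list of GRCm38.p6, used for names only.

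Named clonotypes were the 3 with the most DN reads, the 3 with the most CD8 reads, and the 3 with the highest and lowest ratio among those with at least 20 reads. Named V genes were those with at least 5% of the set or outside both intervals in the same direction. TRBV14, TRBV4, TRBV24 and TRBV15 were named after their values were seen. The members and lists were chosen with earlier results of these data known. Alternatives covered minimum reads, reading frame, matching, depth, merging of near-identical clonotypes, near matches in CD4 and reads as weights. The measures were tested on simulated data. The tools were pandas 2.3.3, NumPy 2.4.6 and SciPy 1.17.1 under Python 3.11.15, with figures by matplotlib 3.10.9.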

Additional observations from a re-analysis of the deposited data

How the results depend on the processing

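The 14 values were recomputed under 9 alternatives. Of the 117 values this gave, 68 stayed within the interval of the reported value (for the number of clonotypes, within 1.5 times), 45 moved beyond it and 4 changed sign. No shared clonotype had 100 times more reads in one library than in the other, so leaving out such clonotypes was not run as a separate setting. No paired analysis was possible because each subset had 1 library and the labels carry no replicate numbers.

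Distances of V and J genes to CD8-only clonotypes stayed larger than those to DN-only clonotypes in every alternative but 1, the J genes at 5 reads. With at least 2 reads, 2129 clonotypes were shared, with 13.98% of DN and 5.70% of CD8 reads and a median log2 ratio of 0.96. With at least 5 reads these were 378, 5.96%, 2.04% and 1.43. Distances to DN-only clonotypes were then 5.43 and 9.97 points for V genes and 4.68 and 10.6 points for J genes, and distances to CD8-only were 21.3 and 28.0 points for V genes, and 9.84 points for J genes at 5 reads. The difference in the share without a D gene was 0.47 points to DN-only at 2 reads, and -3.78 and -4.49 points to CD8-only. The differences in length were -0.21 and -0.20 nucleotides to DN-only, and 1.15 and 2.38 to CD8-only. The differences in the in-frame share were 3.91 and 4.06 points to DN-only, and reversed to -0.39 and -0.605 points to CD8-only.

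With reads as weights, the difference in length reversed to 0.055 nucleotides to DN-only and was 0.455 to CD8-only, the difference in the share without a D gene reversed to 0.97 points to CD8-only, the J gene distance to DN-only was 4.12 points, and the in-frame difference to DN-only was 5.82 points. Matching by nucleotide CDR3 alone gave 20.9% of DN and 10.03% of CD8 reads and length differences of -0.57 and 0.49 nucleotides. Matching by amino acid CDR3 gave 11.4% of CD8 reads, V gene distances of 8.69 points to DN-only and 19.3 points to CD8-only, J gene distances of 3.86 and 8.80 points, differences without a D gene of 3.09 and -0.13 points, and length differences of -0.66 and 0.38 nucleotides. In-frame clonotypes held 19.96% of DN and 9.12% of CD8 reads. At the depth of the CD4 library the shares expected were 19.8% and 8.50%, with no value for the median ratio. Merging of near-identical clonotypes gave 20.8% of DN reads. Without clonotypes 1 mismatch from a CD4 clonotype, the shares were 17.8% and 7.76%. The cause of these changes was not tested, beyond fewer clonotypes under a minimum of reads. Depth limits absence: for 57.3% of the set the DN and CD8 shares were both under the share that 3 CD4 reads stand for.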

Other observations

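The few TCR alpha clonotypes in the tables gave 2 that were present in DN and CD8 only, with 2 reads in each library in all, beside 76 in DN only and 98 in CD8 only. These 2 reads are below the 3 reads taken as the floor.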
